A study of Mus musculus with 9 samples.

Results

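Gene expression in Lewis lung carcinoma cells taken from tumours in the lung was compared with that in the same cells taken from tumours under the skin. The comparison rests on 6 of the 9 arrays of the series, the 3 titled lung and the 3 titled subcutaneous, and covers 19505 genes, each read from 1 array feature, the one of highest mean where a gene had several. No measured value entered the choice of the arrays. Every sample holds 3LL cells, the Lewis lung carcinoma (LLC) line, marked with green fluorescent protein (GFP). The subcutaneous group was transplanted under the skin and the lung group into the lung tissue, with the GFP-positive fraction collected after 7 days. Another 3 samples, grown in dishes for 7 days, are given for reference and help to estimate the spread between arrays. The strain on the labels is C57/BL6, and the series text calls the recipient lungs "BLM lungs" without spelling the abbreviation out. The labels tie no sample to an animal or a culture of its own, so p-values measure only how far these samples spread, and that spread may be technical.

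The alveoli of the lung are lined by flat alveolar type I cells and by type II cells, which secrete surfactant, and the airways by secretory club cells. In a tumour, cells far from vessels run short of oxygen. The factor HIF then escapes degradation and binds promoters at a short element with the core ACGTG, which raises genes for glucose use, vessel growth and mitophagy. Cholesterol and fatty acid enzymes are under another switch, the SREBP factors, which are cleaved and enter the nucleus when membrane sterol is low. Both programs are commonly followed in tumour cells because they read the supply of oxygen and lipid at the site of growth.

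Values are log2 signals, as the authors deposited them, and differences are lung minus subcutaneous on that scale, so that a difference of 1 is a doubling of signal. A gene was called when its adjusted p in limma was under 0.05. By that rule 2927 of 19505 genes (15%) differed, 1797 higher in lung (9.21%) and 1130 lower (5.79%). The share of calls that were higher depends on scaling: it was 61.4% as deposited, and 27.7% after each array was scaled to its upper quartile, which moved the median difference of all genes from -0.07 to -0.38. The upper quartile over genes was 8.55 to 8.68 on the lung arrays and 8.23 to 8.40 on the subcutaneous ones. Of the genes, 28% to 34.4% per array stood above the 90th percentile of the negative control features, which is used below as the level of background.

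Lung replicate 3 stood apart from lung replicates 1 and 2. It lay at least 2 log2 units above the mean of these 2 arrays for 45 genes and at least 2 below it for 121. Every other array was set in the same way against the mean of the rest of its group. These numbers were 9 to 18 and 12 to 23 for the other lung arrays and 13 to 16 and 7 to 25 for the subcutaneous ones. For the dish arrays they were 1 to 3 and 0 to 6. A stricter class, here named a consistent call, therefore asked that a gene be called, that its 3 lung values not overlap the 3 subcutaneous values, and that each lung array differ from the subcutaneous mean by at least 1 in the same direction. Of all genes, 1219 met it (6.25%), 803 higher (4.12%) and 416 lower (2.13%). Among the calls, 644 of the higher genes were less than 1 above the subcutaneous mean on lung replicate 3 and 437 of the lower ones less than 1 below it. For the mean of lung replicates 1 and 2 these numbers were 354 and 349. A mean of 2 arrays spreads less than 1 array, so these numbers and those for lung replicate 3 are not like for like. On lung replicate 3, 0 called genes lay on the opposite side of the subcutaneous mean. That array entered the fit that made the calls, so this number is no separate check of it. Leaving out lung replicate 3 gave 2928 calls, leaving out lung replicate 1 gave 1476 and leaving out lung replicate 2 gave 1938. The dish arrays, which spread least, enter the estimate of the spread, and a fit of the 6 lung and subcutaneous arrays alone gave 2301 calls.

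One measure moved with the lung arrays and is given here because it touches many of the results. A set of 30 genes whose mRNAs are very long, of which 26 were measured, had a mean signal of 9.68, 9.90 and 8.15 across the lung arrays in order, 7.77, 8.18 and 7.83 on the subcutaneous arrays and 7.30 to 7.67 on the dish arrays. Of the 26 genes, 10 were called higher and 1 lower, with a median difference of 1.84 for lung replicates 1 and 2 and of -0.12 for lung replicate 3. RNA integrity numbers were 8.3, 7.9 and 8.3 for the lung samples and 8.6, 7.5 and 7.8 for the subcutaneous ones. With this mean as a covariate in the model, below the long-mRNA covariate, the number of calls fell to 827 (470 higher, 357 lower). In this mean lung replicate 3 lay near the subcutaneous arrays, so the fit leans toward the difference on that array. Gstt1 differed by -1.95 with the covariate, by -1.97 on lung replicate 3 and by -4.71 on lung replicates 1 and 2. For Lum these values were -7.01, -6.81 and -5.78. A call kept or lost with the covariate thus rests largely on lung replicate 3 and does not isolate the long-mRNA level. The part of that level in the results below was not tested beyond this fit. What this covariate does to the calls is given beside the groups described. A call that ends with it does not by itself mean a smaller difference. Lats2 lost its call at 3.00 with the covariate and 2.75 without, and Pgk1 at -1.25 and -1.31, while Cenpe lost its call at 1.69 and 4.67.

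Surfactant genes showed the 2 largest consistent rises. Sftpc, the surfactant protein C gene of type II cells, read 15.59, 13.45 and 16.38 on lung replicates 1, 2 and 3, and 5.60, 5.59 and 4.95 on the subcutaneous arrays. The groups are far apart, and since no subcutaneous value is above background the difference is at least 7.63 (limma adjusted p = 3.31e-06). Sftpa1, which encodes surfactant protein A, read 9.31, 8.77 and 11.88 in lung and 4.11, 4.25 and 3.57 under the skin, a difference of at least 2.48 (limma adjusted p = 0.000109). Cldn18, a tight junction gene of alveolar epithelium, was even across the lung arrays at 8.58, 8.98 and 8.89, against 5.88, 5.58 and 5.26, and differed by at least 1.31 (limma adjusted p = 3.30e-05). All 3 were under background in the dish cultures too (means 5.46, 4.21 and 5.79).

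Of 12 type II markers measured, 7 were called higher and 0 lower. Among the 7, only Sftpc and Sftpa1 were above background on all 3 lung arrays. Cxcl15, a lung chemokine, and Sftpb, surfactant protein B, were above it on lung replicate 3 alone (8.31 and 8.65), and Sftpd, surfactant protein D, on none. The other 2 calls, Chil1 and Slc34a2, were under background throughout, and Chil1 was lost without lung replicate 1 (limma adjusted p = 0.0616), Slc34a2 without any array but lung replicate 2. The median difference of the list was 1.11, 0.80 and 1.91 on lung replicates 1, 2 and 3, beside -0.07 over all genes. Other members were well above background at both sites without a call, such as Etv5, a transcription factor of type II cells (12.52, 14.03 and 12.78 in lung, 12.96, 12.89 and 13.14 under the skin), the lipid transporter Abca3 (difference -0.53, limma adjusted p = 0.289) and the surfactant lipid enzyme Lpcat1 (-0.22, limma adjusted p = 0.693). The type I list was split: of 7 genes Cldn18 and Ager were called higher and Emp2, a membrane protein, lower (9.78, 9.38 and 9.01 against 10.63, 11.28 and 11.65). Ager, a receptor abundant on type I cells, cleared background only on lung replicate 2, and its call ended when that array was left out (limma adjusted p = 0.0535) or with the long-mRNA covariate (0.32).

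Airway secretory genes separated the lung arrays from each other. Scgb1a1, the main secretory protein of club cells, read 6.31, 9.83 and 13.68 across the lung arrays and 4.17 to 5.23 under the skin. Cbr2, a carbonyl reductase of club cells, read 7.55, 7.71 and 12.72, against 5.33 to 5.92. Scgb3a2, another secretoglobin, reached 13.10 on lung replicate 3 but 5.55 and 6.27 on the other lung arrays, both under background, and it was not called (difference 3.96, limma adjusted p = 0.0685). The median of the 10 airway genes stood 0.44 below the subcutaneous mean on lung replicates 1 and 2 and 2.23 above it on lung replicate 3. Scgb1a1 lost its call without subcutaneous replicate 2 (limma adjusted p = 0.0535) and Cbr2 without any 1 of the subcutaneous arrays (0.0521 to 0.0747). With the long-mRNA covariate 6 of the 10 were called higher, but that fit leans toward lung replicate 3. Scgb3a2 differed by 9.08 with it, by 8.75 on lung replicate 3 and by 1.56 on lung replicates 1 and 2. Only 1 of the 10 genes was above background on all 3 arrays of a site.

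Markers of other cells that the samples could hold were mostly under background. Of 12 muscle and pericyte genes Mylpf, a myosin light chain of skeletal muscle, was called higher (7.76, 8.29 and 8.71 against 7.21, 7.36 and 7.21), a call lost without 6 of the 9 arrays in turn. Of 9 lymphocyte and 11 keratinocyte and adipocyte genes, Gzma and Lor were called lower, each under background on all 6 arrays. The 8 ciliated, 8 neutrophil and 5 erythroid and mesothelial genes had 0 called by limma (2 of these 21 at an unadjusted p under 0.05), and none of them was above background on all 3 arrays of a site. The leukocyte gene Ptprc, the macrophage gene Adgre1, the endothelial gene Pecam1 and the epithelial gene Epcam were under background on all 6 arrays. Eng, an endothelial receptor that other cells also make, was called higher (9.73, 9.06 and 7.43 against 7.30, 5.40 and 6.21), 1 of 9 endothelial genes, and its call ended with the long-mRNA covariate (limma adjusted p = 0.40). Of 13 macrophage and monocyte genes Lyz2, the lysozyme gene that type II cells also express, was the 1 call, at 9.68, 6.32 and 10.04 against 5.82 to 6.66. That call was lost when any array other than lung replicate 2 was left out (limma adjusted p = 0.061 to 0.178). The cells had been collected as GFP-positive, and whether other cells passed that selection was not tested. In bulk samples, fewer cells of a type and less RNA per cell cannot be told apart.

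**Figure D1:**
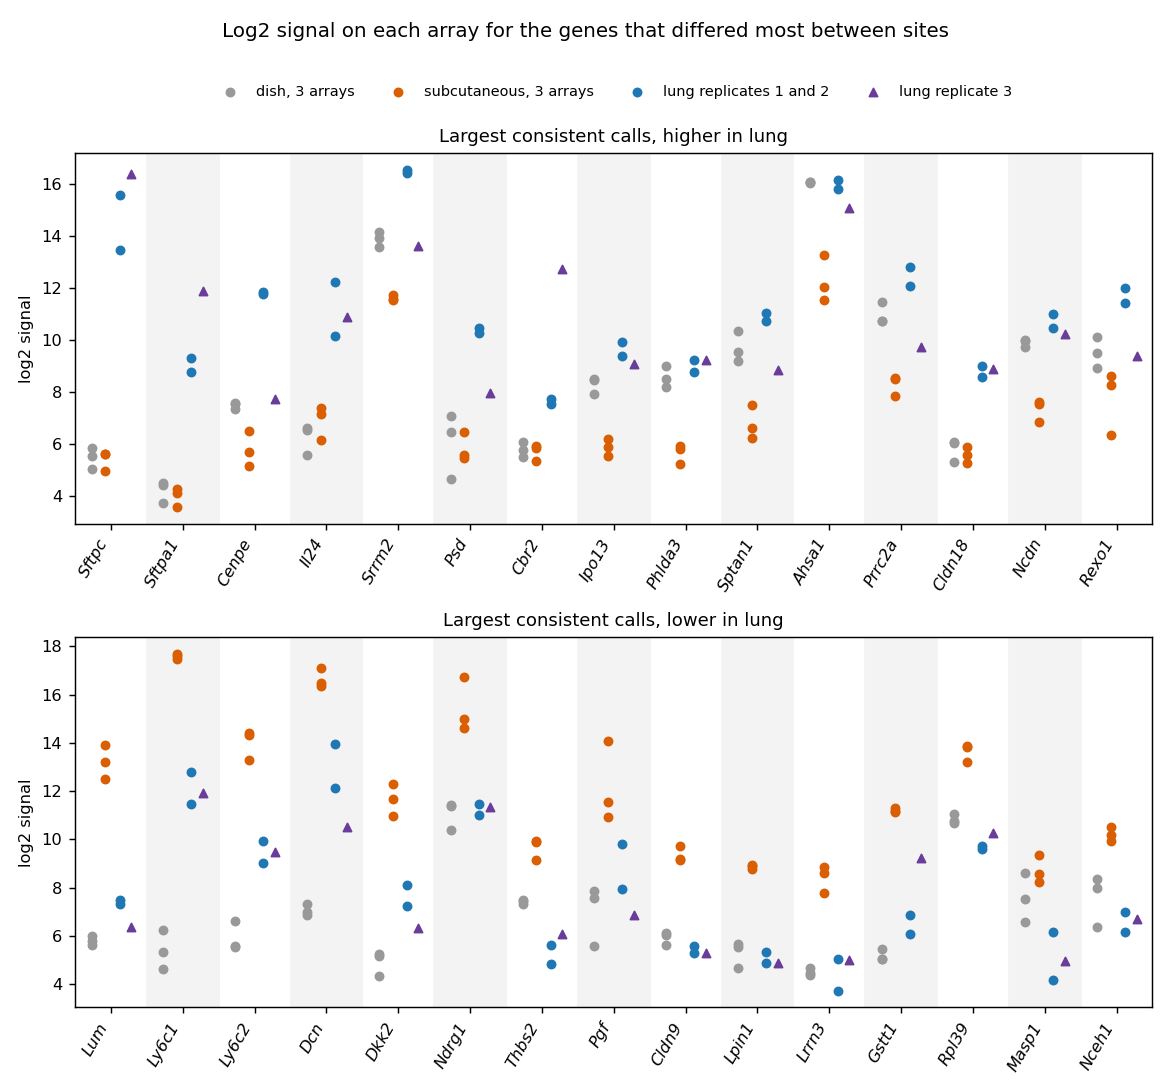
Log2 signal (vertical axis) on each of the 9 arrays for the 15 genes with the largest consistent rise (upper panel) and the 15 with the largest consistent fall (lower panel), ordered by size; grey points are dish, orange subcutaneous and blue lung replicates 1 and 2, and purple triangles are lung replicate 3. Only consistent calls with the brighter group above background on all 3 arrays, and kept without any 1 lung array, were ranked, which leaves out Scgb1a1 and Bptf. For Cenpe, Srrm2 and Prrc2a the triangle lies well below the blue points, while for Ipo13, Phlda3 and Cldn18 the 3 lung arrays lie close together.

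The other genes among the 15 rises plotted belong to varied processes. Il24, a cytokine of the interleukin 10 family, read 12.21, 10.16 and 10.87 in lung and 7.16, 6.16 and 7.37 under the skin, a difference of 4.18 and of at least 3.57 over background (limma adjusted p = 0.000236). Phlda3, a p53 target that restrains Akt signalling, read 9.24, 8.77 and 9.24 against 5.24, 5.79 and 5.91. The dish cultures (mean 8.56) lay nearer to the lung than to the subcutaneous arrays. So they did for the nuclear import receptor Ipo13 (9.93, 9.38 and 9.07 in lung, 8.29 on the dish arrays, 6.20, 5.86 and 5.52 under the skin). Ahsa1, the activator of the HSP90 ATPase, stood at 16.16, 15.82 and 15.09 in lung and 16.05 in dishes but at 13.26, 11.53 and 12.03 under the skin, a 10.7-fold difference (limma adjusted p = 0.000242). The neuronal cytoplasmic protein gene Ncdn had the same order, at 10.99, 10.44 and 10.21 against 7.52, 6.82 and 7.61, with 9.89 in dishes.

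Several of the largest rises were much smaller on lung replicate 3. The kinetochore motor gene Cenpe read 11.77, 11.85 and 7.72 in lung and 5.15, 5.67 and 6.50 under the skin, and the splicing scaffold Srrm2 read 16.41, 16.53 and 13.62 against 11.55, 11.54 and 11.74. Psd, an exchange factor for the small GTPase Arf6, read 10.26, 10.47 and 7.96 against 6.46, 5.45 and 5.55. Sptan1, the alpha spectrin of non-erythroid cells, Prrc2a, an RNA-binding protein, and Rexo1, an exonuclease-domain protein, showed the same form, with differences of 4.10, 4.16 and 3.96 on lung replicates 1 and 2 and of 2.06, 1.42 and 1.65 on lung replicate 3. Each of these 6 genes was still called when any 1 array was left out. With the long-mRNA covariate Srrm2 was called (1.85, limma adjusted p = 0.037), and Cenpe, Psd, Sptan1, Prrc2a and Rexo1 were not (0.081 to 0.40). Cenpe and Srrm2 are members of that list themselves.

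Of the 15 falls plotted, the matrix and secreted factors are given first. Lum, the proteoglycan lumican, read 7.33, 7.51 and 6.38 in lung and 13.19, 13.92 and 12.48 under the skin, a 69.7-fold difference (limma adjusted p = 3.67e-06). Dcn, the proteoglycan decorin, read 13.94, 12.15 and 10.53 against 16.47, 17.09 and 16.37. The dish cultures lay at 5.80 for Lum and 7.05 for Dcn, so Dcn was well above the culture level at both sites and Lum far above it under the skin. Dkk2, a secreted Wnt antagonist, read 8.11, 7.23 and 6.35 against 10.98, 12.31 and 11.67, and Pgf, the placental growth factor that signals to endothelium, 9.80, 7.96 and 6.88 against 10.91, 14.09 and 11.54. In all of these, lung replicate 3 was the lowest of the lung arrays. Thbs2, a matrix glycoprotein that limits vessel growth, was under background on all lung arrays and differed by at least 2.40 (limma adjusted p = 2.57e-05).

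Of 12 fibroblast markers 4 were called lower and 0 higher, and Lum and Dcn are among them. The others were Dpt, dermatopontin, which was under background in lung and differed by at least 0.81, and Mfap5, which was under background at both sites and lost its call without 6 of the 9 arrays in turn and with the long-mRNA covariate (limma adjusted p = 0.22). The interstitial collagen genes Col1a1 and Col3a1 were under background on all 6 arrays. The mean log2 signal over the 12 genes was 5.64, 5.51 and 5.26 across the lung arrays and 6.58 to 6.88 under the skin. Lum, Dcn and Dpt, with differences of -6.12, -4.44 and -2.31, weigh most in it, beside a list median of -0.61. Only 3 of the 12 were above background on all 3 arrays of a site. The mean thus largely restates the genes just named, and the part of fibroblasts in the falls of matrix genes was not tested.

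The other large falls were of varied kinds. Ly6c1 and Ly6c2, near-identical surface antigens whose separate values are uncertain, read 11.46, 12.81 and 11.91 against 17.60, 17.47 and 17.68, and 9.03, 9.93 and 9.50 against 13.30, 14.39 and 14.33. The tight junction gene Cldn9 was at 9.16 to 9.74 under the skin and under background on every lung array, a difference of at least 2.10 (limma adjusted p = 4.65e-06). Masp1, a protease of the lectin complement pathway, Lrrn3, a leucine-rich repeat protein, and Nceh1, a cholesterol ester hydrolase, were under background in lung too, with bounds of 1.45, 1.15 and 2.95. Gstt1, a glutathione transferase, read 6.07, 6.89 and 9.22 in lung and 11.12, 11.16 and 11.30 under the skin, so lung replicate 3 lay nearer the subcutaneous level, and its call ended with the long-mRNA covariate (limma adjusted p = 0.069).

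The oxygen-response genes that changed were all lower in lung. In a list of 21 measured hypoxia response genes 11 were called lower and 0 higher, 9 of them consistent calls, with a median difference of -1.11 on lung replicates 1 and 2 and -0.97 on lung replicate 3. Ndrg1, a stress gene, read 11.003, 11.45 and 11.35 in lung and 14.62, 16.72 and 14.98 under the skin, an 18.1-fold difference (limma adjusted p = 0.000212). Lung lay at the level of the dish cultures (11.07). The mitophagy receptors Bnip3l and Bnip3 read 10.36, 10.64 and 10.83 against 13.16, 14.82 and 13.88, and 7.57, 7.21 and 7.36 against 9.44, 11.64 and 10.33. On the lung arrays both were below their mean in dishes (11.61 and 9.37). Subcutaneous replicate 2 was the highest array for each of these 3 genes.

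Adm, a vasodilator peptide, read 11.82, 12.60 and 11.82 in lung and 14.18, 16.75 and 15.32 under the skin, a difference of -3.34 (limma adjusted p = 0.000874). Egln3, a prolyl hydroxylase that marks HIF for degradation and is itself induced by it, read 11.67, 11.90 and 11.45 against 14.17, 15.12 and 14.35. The 3 lung arrays stood within 1 unit of each other for all of these genes. Kdm3a, a histone demethylase, Mxi1, a Myc antagonist, Ankrd37, an ankyrin repeat protein, and P4ha1, a collagen prolyl hydroxylase, were lower by 2.17, 1.67, 1.69 and 1.42. Each of these 9 genes was called without any 1 array, and with the long-mRNA covariate 8 of the list were called, Ankrd37 not among them (limma adjusted p = 0.092). The other calls, Pdk1 and Car9, depended on subcutaneous replicate 2 and on each of lung replicates 1 and 2, and Car9, under background at both sites, on subcutaneous replicates 1 and 3 as well.

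Not all oxygen-response genes took part. The vessel growth factor Vegfa read 12.49, 12.14 and 11.42 in lung and 12.72, 14.07 and 12.48 under the skin, with overlapping groups (-1.07, limma adjusted p = 0.0851). The glucose transporter Slc2a1 read 18.13, 17.98 and 17.86 against 18.36, 19.26 and 18.72 (-0.79, limma adjusted p = 0.0567). Of 17 glycolysis genes 2 were called lower and 0 higher, beside 15% of all genes called. They were Pgk1, phosphoglycerate kinase, at 11.61, 11.25 and 11.74 against 12.31, 13.24 and 12.99, and Ldha, lactate dehydrogenase, whose call rested on every subcutaneous array and on lung replicates 1 and 2. Neither was called with the long-mRNA covariate (limma adjusted p = 0.17 for Pgk1 and 0.46 for Ldha). The HIF machinery itself was divided, with 3 of 7 genes called higher and 2 lower. Vhl, which targets HIF for degradation, and Epas1, which encodes HIF-2 alpha, were higher by 1.29 and 1.14, and Hif1a and Hif3a lower by 0.75 and 0.84. Epas1 and Hif3a were under background on all 6 arrays, and Vhl was above it on lung replicates 1 and 3 only. Each of these 4 calls was lost without lung replicate 1 and with the covariate. Egln2, another prolyl hydroxylase, was called higher (7.60, 7.66 and 6.32 against 5.23, 4.89 and 5.69). It was above background on lung replicates 1 and 2 only and not called with the covariate (limma adjusted p = 0.23).

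**Figure D2:**
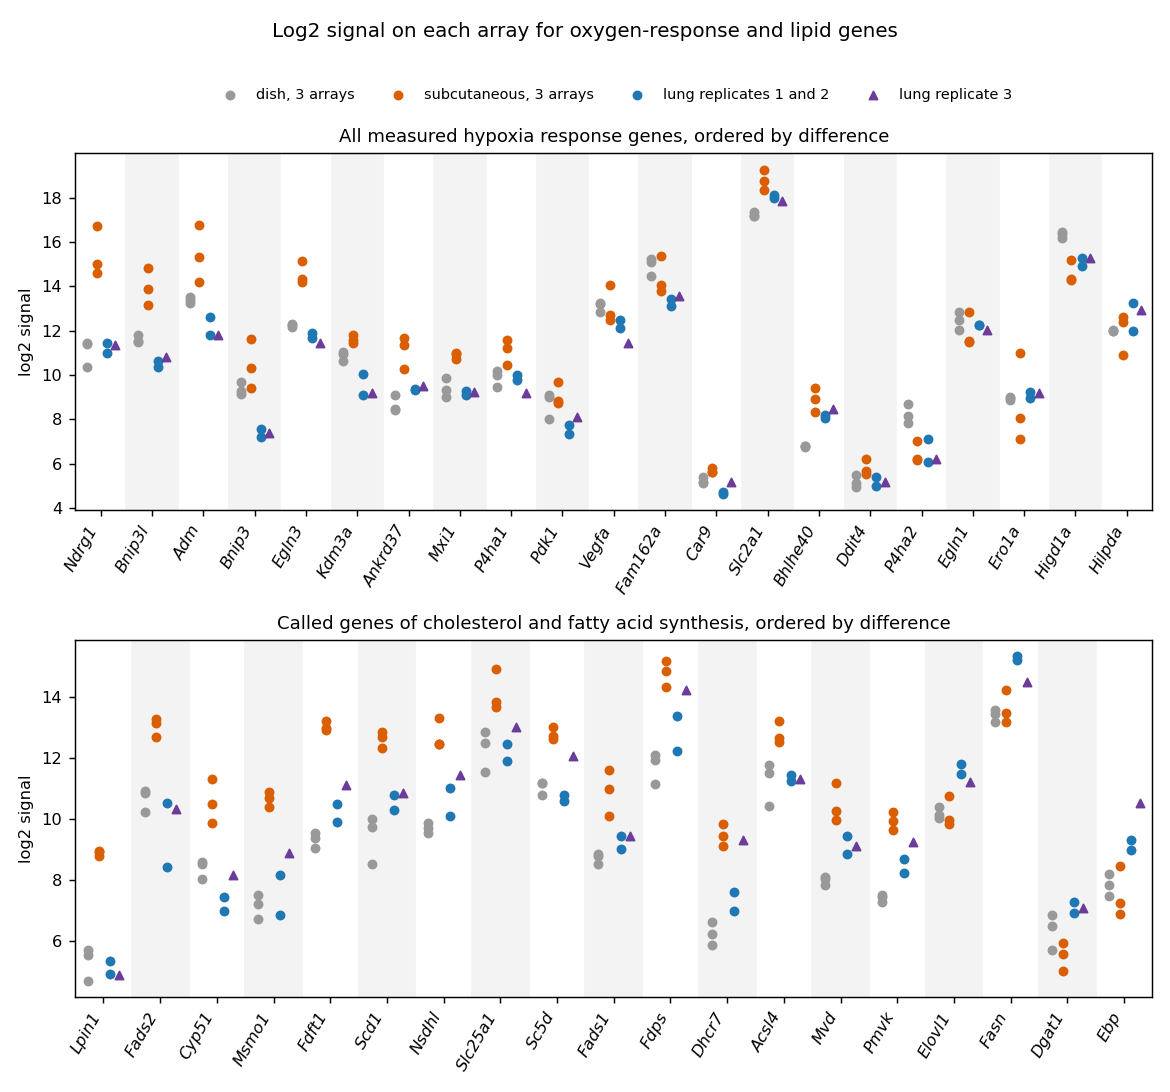
Log2 signal (vertical axis) on each of the 9 arrays for all 21 measured hypoxia response genes (upper panel) and for the called genes of cholesterol and fatty acid synthesis (lower panel), ordered by difference, with grey dish, orange subcutaneous, blue lung replicates 1 and 2 and purple lung replicate 3. In the upper panel the 3 lung arrays cluster, while in the lower panel lung replicate 3 lies above lung replicates 1 and 2 for Msmo1, Sc5d, Fdps and Dhcr7.

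The core letters of the hypoxia response element, ACGTG, were looked for on both strands in RefSeq promoter windows of assembly GRCm38.p6, which run from 250 bases before to 50 after a gene's start. Of the 11 hypoxia genes called lower 9 had a window here, and 6 of these 9 (66.7%) held the letters. All 9 other members with a window held them (100%), and so did 3763 of 15691 genes tested (24.0%). Having the letters did therefore not part the genes that fell from those that were not called. The stretches with the match nearest to the start are shown for the 4 called genes of largest difference that hold one, with the match in capitals (2 overlapping matches, 1 on each strand, in Bnip3), written along the gene's strand and ending at the start site at the latest:
Bnip3 (chr7:138909579-138909644, minus strand, 108 bases upstream): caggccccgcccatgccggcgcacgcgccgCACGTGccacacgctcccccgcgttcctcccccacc
Egln3 (chr12:54204069-54204124, minus strand, 229 bases upstream): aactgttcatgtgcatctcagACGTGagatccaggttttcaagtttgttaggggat
Ankrd37 (chr8:45999851-45999886, minus strand, 6 bases upstream): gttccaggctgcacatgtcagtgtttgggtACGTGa
Mxi1 (chr19:53329317-53329381, plus strand, 66 bases upstream): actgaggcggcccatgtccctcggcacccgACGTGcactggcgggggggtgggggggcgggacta
The match in Ankrd37 lies next to the start site, that in Egln3 near the far end of its window. A match is a description of the sequence and does not show that a factor was bound there.

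Calls among cholesterol synthesis enzymes ran mainly downward in lung. Of 16 genes 9 were called lower, 5 of them consistently, and 1 higher, with a median difference of -1.56 on lung replicates 1 and 2 and -0.66 on lung replicate 3. Cyp51, the lanosterol demethylase, read 6.98, 7.44 and 8.17 in lung and 11.32, 10.50 and 9.88 under the skin (limma adjusted p = 0.000327). Msmo1, which removes the next methyl groups, read 6.85, 8.14 and 8.88 against 10.90, 10.68 and 10.40, and squalene synthase, Fdft1, 9.89, 10.49 and 11.11 against 13.23, 12.99 and 12.91. Lung replicate 3 was the highest lung array in each, yet below all subcutaneous arrays. For Sc5d, a late desaturase, it came close to them, at 12.08 against 12.63 and above, with 10.58 and 10.77 on the other lung arrays. Ebp, the sterol isomerase that comes before Sc5d, was higher in lung (9.30, 8.97 and 10.52 against 8.46, 7.25 and 6.88, limma adjusted p = 0.00753).

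Desaturases of fatty acids and their partners went the same way as the sterol enzymes. Fads2, the first desaturase of polyunsaturated fatty acids, read 8.43, 10.53 and 10.31 in lung and 13.28, 13.14 and 12.69 under the skin (limma adjusted p = 0.000617). Scd1, which makes oleate, read 10.30, 10.79 and 10.84 against 12.31, 12.84 and 12.68, and Lpin1, a phosphatidate phosphatase, was under background on all lung arrays and differed by at least 1.62. In the fatty acid list 6 of 21 genes were called lower and 3 higher. The higher ones were the elongase Elovl1, the triglyceride enzyme Dgat1 and fatty acid synthase, Fasn, which lost its call without lung replicate 1. Of the sterol regulators, Scap, the escort of SREBP, was called higher (8.94, 9.53 and 8.64 against 7.95, 7.58 and 6.90), the sterol carrier Stard4 lower (7.91, 8.27 and 8.30 against 9.59, 9.28 and 9.33), and Srebf2, the SREBP gene of the sterol branch, was not called (-0.38, limma adjusted p = 0.525). With the covariate neither Scap nor Stard4 was called (limma adjusted p = 0.34 and 0.12).

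With the long-mRNA covariate 2 cholesterol genes were called lower, Cyp51 and Fdft1, and of the fatty acid list Lpin1 and Fads2. Leaving out lung replicate 1 left 5 cholesterol genes called lower. The letters TCACNCCAC, a form of the sterol element read on both strands, were in 0 of 7 promoter windows of the cholesterol genes called lower, in 1 of 6 of the other members (Hmgcs1) and in 1.43% of all genes with a window.

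Of 29 EGF, FGF and PDGF ligands, receptors and related genes 1 was called higher and 3 lower, a share near the 15% of all genes. Pdgfc, a ligand of the PDGF receptors, read 10.64, 10.57 and 10.35 in lung and 8.31, 7.68 and 6.62 under the skin, a difference of 2.98 (limma adjusted p = 0.000271), with 10.11 in dishes. The receptor Fgfr1 was lower (10.55, 11.29 and 10.27 against 12.76, 13.22 and 12.46), as was Igfbp4, which holds insulin-like growth factors away from their receptor (10.19, 10.94 and 11.48 against 13.56, 13.78 and 13.42). These were 3 of the 4 calls, and all 3 were called with the long-mRNA covariate. Id3, an inhibitor of basic helix-loop-helix factors and a target of BMP signalling, read 8.70, 10.52 and 8.12 in lung, 5.86, 6.38 and 6.39 under the skin and 13.03 in dishes. It was 1 of 2 calls among 28 BMP and TGF-beta genes, beside 15% of all genes called, and was not called with the covariate (limma adjusted p = 0.12).

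Feedback inhibitors of the MAPK cascade, which ERK activity itself induces, were lower in part: 4 of 17 were called lower and 1 higher. These calls are under the share among genes above background (2645 of 6311). Dusp6, the ERK phosphatase, read 12.78, 13.33 and 13.18 in lung and 16.39, 16.27 and 16.01 under the skin, and 13.64 in dishes (limma adjusted p = 0.000236). Dusp10, a phosphatase of JNK and p38, read 10.65, 11.07 and 10.78 against 12.03, 12.48 and 11.90. The 3 lung arrays lay within 1 unit for both genes, and both were called in every leave-one-out fit and with the covariate. Egr2, an early response factor, was under background in lung and differed by at least 1.09 (limma adjusted p = 0.00236). Of 20 AP-1 and early genes 3 were called, a share near the 15% of all genes, and only the Egr2 call held without any 1 array.

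In the Hippo pathway, whose kinases restrain the transcriptional coactivator Yap, 6 of 16 genes were called higher and 0 lower. That number is near the share among genes above background (2645 of 6311). Stk4, the upstream kinase, read 10.03, 9.73 and 9.40 in lung and 7.85, 8.13 and 7.22 under the skin, and Nf2, its activator merlin, 11.53, 11.70 and 10.90 against 9.85, 9.82 and 9.87. Lats2, the kinase that acts on Yap, was even in lung at 7.68, 7.67 and 7.57 but spread under the skin at 6.82, 3.86 and 3.98, all under background. With the long-mRNA covariate none of the 6 was called, with limma adjusted p of 0.092 for Stk4 and Lats2 and 0.30 for Nf2. The differences were 1.99, 2.75 and 1.53 for Stk4, Lats2 and Nf2 without the covariate and 1.46, 3.00 and 0.88 with it.

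Calls among matrix remodelling and guidance genes ran in both directions. Postn, periostin, was under background in lung and differed by at least 0.76, and the collagen cross-linking enzymes Loxl3 and Plod2 read 8.48, 9.91 and 9.97 against 12.27, 11.98 and 11.98, and 13.38, 12.83 and 12.97 against 14.50, 15.13 and 14.28. These were the 3 of 21 collagen and cross-linking genes called lower, beside 1 called higher, while 15% of all genes were called either way. Loxl3 missed the threshold with the covariate (limma adjusted p = 0.053). The protease inhibitor Timp1 rose (9.87, 9.54 and 9.79 against 8.22, 7.99 and 8.12, limma adjusted p = 0.00113). In its list of 24 matrix proteases and inhibitors 3 were called higher and 3 lower, beside the same 15% of all genes. Among 21 semaphorin and ephrin genes, Sema7a, Sema3a, Sema3e and Efna1 fell and the receptor Plxnb2 rose, with 2 further calls upward, Plxna1 and Efnb1, that were lost without lung replicate 1, lung replicate 2, subcutaneous replicate 1 or subcutaneous replicate 3. Plxnb2, a receptor for class 4 semaphorins, read 10.34, 10.81 and 9.79 against 8.09, 8.04 and 6.97, and Sema3a 7.19, 7.63 and 8.99 against 10.32, 10.94 and 10.21, nearer to the subcutaneous level on lung replicate 3. Sema3a and Sema7a were not called with the covariate (limma adjusted p = 0.098 and 0.089).

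Of 19 integrins 2 were called lower and 0 higher, beside 15% of all genes called, with Itga6, a laminin receptor, at 14.14, 13.72 and 14.29 against 15.33, 15.15 and 15.20, and Itgb4 under background at both sites, and neither was called with the covariate. Of 17 laminin and basement membrane genes limma called 0 (1 higher and 1 lower at an unadjusted p under 0.05), and of 20 chemokines 0 (5 lower at an unadjusted p under 0.05). Krt18, a keratin of simple epithelium, read 8.24, 7.23 and 8.66 in lung, 10.99, 11.03 and 11.06 under the skin and 5.72 in dishes, while its partner Krt8 nearly touched between the sites (13.10, 12.48 and 13.27 against 13.77, 13.87 and 13.29) and was not called (-0.69, limma adjusted p = 0.128). In the actin and myosin list calls ran both ways, 7 higher and 6 lower of 26. The crosslinker Actn4 rose (15.35, 15.28 and 13.93 against 13.17, 12.64 and 12.22) and vimentin, Vim, fell (9.80, 9.96 and 10.42 against 11.15, 12.05 and 11.57), and neither was called with the covariate.

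Of 12 S100 calcium-binding proteins 4 were called lower and 0 higher, and all 4 were consistent calls that held without any 1 array. Of all genes 15% were called, and 2645 of the 6311 above background. S100a4, linked to cell motility, read 15.57, 16.23 and 15.82 in lung and 17.52, 17.63 and 17.71 under the skin, and S100a6 read 14.20, 14.39 and 14.38 against 15.30, 15.73 and 15.75. Antigen presentation on MHC class I was lower in part, with 6 of 16 genes called lower and 2 higher. B2m, the light chain, read 14.59, 14.52 and 14.45 in lung, 15.76, 16.26 and 16.15 under the skin and 13.01 in dishes, so that lung lay between the other groups. Tap1, the peptide transporter, was lower by 1.79 (8.37, 9.03 and 7.95 against 10.30, 9.80 and 10.63). The immunoproteasome subunit Psmb9 read 5.51 and 5.76 on lung replicates 1 and 2 and 7.79 on lung replicate 3, against 7.95 to 8.94, and was not called when subcutaneous replicate 1 or either of those lung arrays was left out (limma adjusted p = 0.0640 to 0.0838) or with the covariate (0.83). B2m, Tap1 and S100a4 were called with the long-mRNA covariate and S100a6 was not (limma adjusted p = 0.077).

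**Figure D3:**
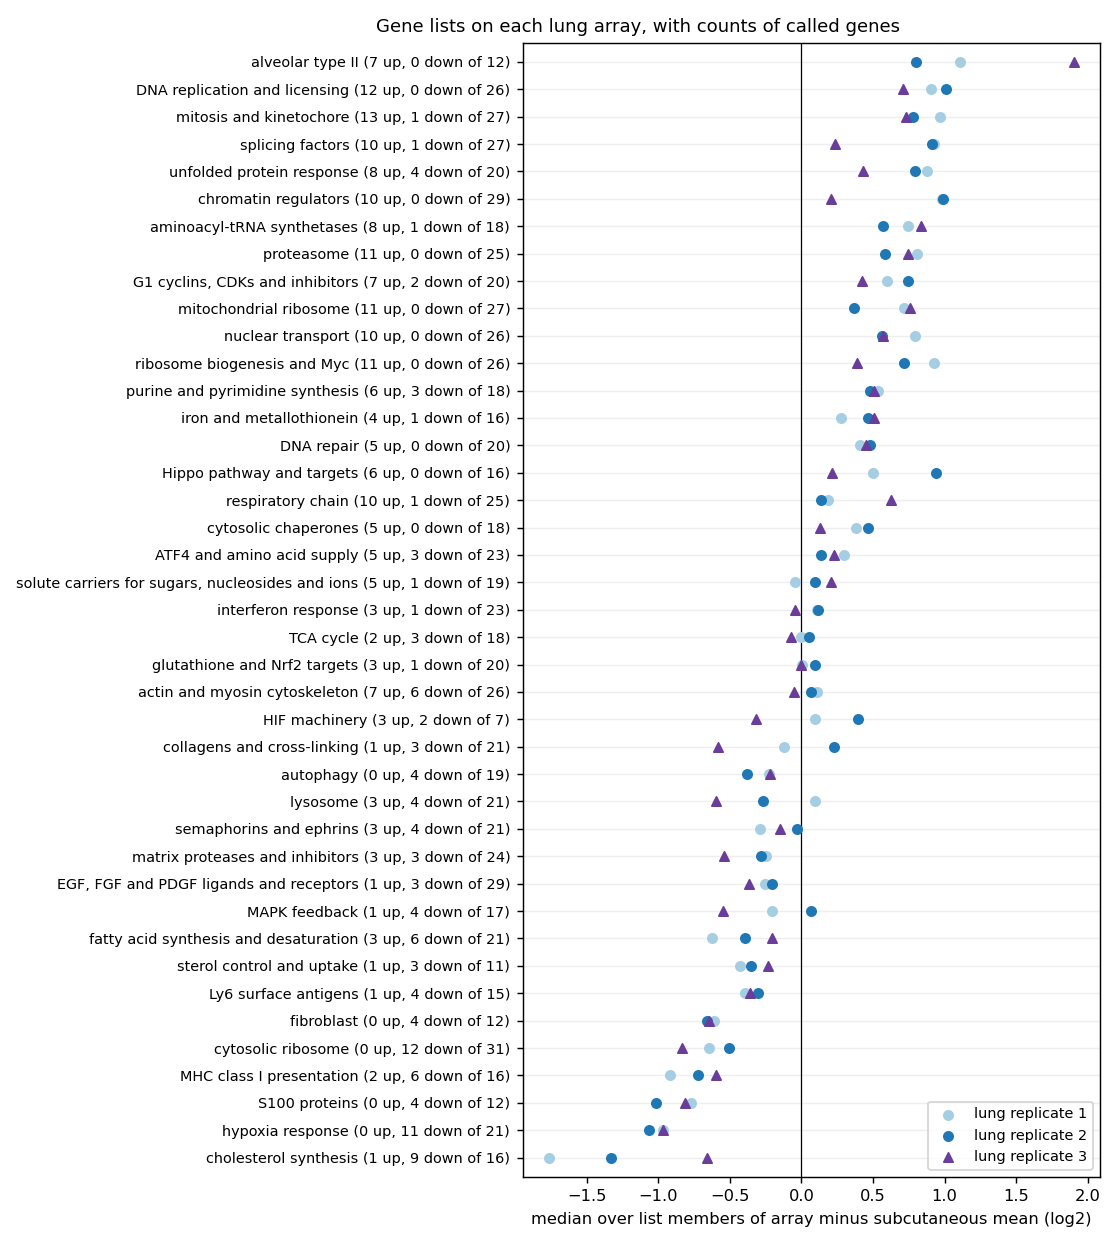
Median over the measured members of each gene list (rows) of the array's log2 signal minus the subcutaneous mean (horizontal axis), with light blue, dark blue and purple for lung replicates 1, 2 and 3; brackets give the genes called higher (up) and lower (down). The 3 lung arrays lie on the same side of 0 for the mitosis, replication, proteasome, hypoxia, cholesterol, chromatin and splicing lists. The chromatin and splicing lists lie much nearer 0 on lung replicate 3 (0.21 and 0.24) than on lung replicates 1 and 2.

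Calls among cell division genes ran mainly upward in lung. Beside them, 2645 of the 6311 genes above background were called either way. Of 27 mitosis and kinetochore genes 13 were called higher and 1 lower, and of 26 DNA replication genes 12 higher and 0 lower, with medians of 0.93 and 0.99 on lung replicates 1 and 2 and 0.73 and 0.71 on lung replicate 3. Cdc20, which activates the anaphase-promoting complex, read 13.78, 13.68 and 13.33 in lung and 11.19, 10.97 and 10.12 under the skin, a 7.13-fold difference (limma adjusted p = 0.000144). Pold1, the catalytic subunit of DNA polymerase delta, read 12.70, 12.63 and 12.78 against 10.61, 10.45 and 10.09, and Cdc6, which loads the replicative helicase, 9.50, 9.40 and 10.29 against 8.20, 7.52 and 7.49. The 3 lung arrays lay within 1 unit for each, and the dish cultures (12.76, 12.04 and 9.87) lay nearer to lung than to the subcutaneous mean. Geminin, Gmnn, and the polymerase epsilon subunit Pole rose by 1.55 each.

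The proliferation marker Mki67 stood high on lung replicates 1 and 2 only, and Cenpe, given above, was likewise much lower on lung replicate 3. Mki67 read 14.34 and 14.85 on lung replicates 1 and 2 but 9.49 on lung replicate 3, against 8.99 to 9.33 under the skin, and its call ended when a subcutaneous array, or either of lung replicates 1 and 2, was left out. Its mRNA is on the very long list. With that list's level as a covariate its difference was -0.07 (limma adjusted p = 0.969), 1 mitosis gene was called higher, Cdc20, and of the replication genes 2 were, Pold1 and Cdc6. Leaving out lung replicate 1 left 5 mitosis and 7 replication genes called higher. Among 20 genes of the G1 phase the CDK inhibitor Cdkn2c fell (9.61, 11.13 and 10.26 against 12.75, 13.04 and 12.76) and the phosphatase Cdc25a, which frees CDKs, rose (11.10, 10.48 and 9.31 against 9.10, 7.46 and 7.97). In all, 7 were called higher and 2 lower. With the covariate none of the 7 was called, and without lung replicate 1 the list had 2 calls upward and 1 downward.

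Calls in the lists for ribosome assembly and tRNA charging ran mainly upward and those for cytosolic ribosomal proteins downward. For ribosome assembly and the ribosomal proteins their number was near the share among genes above background (2645 of 6311). Of 26 ribosome biogenesis genes 11 were called higher and 0 lower, led by Polr1a, the large subunit of RNA polymerase I (9.27, 9.55 and 9.37 against 7.43, 6.95 and 6.50, limma adjusted p = 0.000186). Rrp9, a processing factor of ribosomal RNA, read 12.36, 12.18 and 12.26 against 10.87, 10.23 and 10.36. Of 18 aminoacyl-tRNA synthetases 8 were higher and 1, Qars, lower, with Mars1 at 14.34, 14.41 and 14.22 against 12.98, 12.87 and 12.33. The transcription factor Myc itself was not called (15.63, 16.25 and 15.51 against 16.12, 16.15 and 16.02). With the covariate 2 of the biogenesis genes were called higher, Polr1a and Rrp9, and 1 synthetase, Mars1, and without lung replicate 1 the synthetases had 2 calls upward.

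Of 31 cytosolic ribosomal proteins 12 were called lower and 0 higher, with a median of -0.65 on lung replicates 1 and 2 and -0.83 on lung replicate 3. Rpl10a, a protein of the large subunit, read 14.35, 14.49 and 14.56 in lung and 15.85, 16.22 and 16.25 under the skin (limma adjusted p = 0.000639), and Rps24, of the small subunit, 16.39, 16.61 and 16.57 against 17.39, 17.92 and 17.86. These differences are small, and their number depends on scaling: 6 were called lower after quantile normalization, 22 after upper quartile scaling, 21 with trended prior variances and 2 with the covariate, and 5 to 7 without any 1 of subcutaneous replicates 2 and 3 and the lung arrays. Rpl39, outside the list, fell further (9.71, 9.61 and 10.26 against 13.22, 13.81 and 13.89, limma adjusted p = 1.38e-05). Ribosomal protein genes have many processed copies in the genome, so signal from such copies cannot be told from their own.

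Of the mitochondrial lists, the ribosome and the respiratory chain had calls mainly upward and the TCA cycle had them both ways. For the ribosome and the respiratory chain the number of calls was near the share among genes above background (2645 of 6311). For the TCA cycle it was under that share. Of 27 mitochondrial ribosomal proteins 11 were called higher and 0 lower, with medians of 0.53 on lung replicates 1 and 2 and 0.76 on lung replicate 3. Mrpl37 read 15.63, 15.37 and 15.77 in lung and 13.78, 13.41 and 13.22 under the skin (limma adjusted p = 0.000225), and Mrps7 11.08, 10.45 and 11.17 against 8.88, 8.73 and 8.91. With the covariate 6 were called, Mrpl37 and Mrps7 among them. Respiratory chain genes had 10 of 25 higher and 1 lower, for example Uqcrc1, a core protein of complex III (14.89, 14.55 and 14.68 against 13.62, 12.91 and 12.81), and 2 with the covariate. Of 18 TCA cycle genes 2 were called higher and 3 lower. Idh3a, of the mitochondrial enzyme, rose (12.03, 11.30 and 12.19 against 10.47, 10.29 and 9.75) and Idh1, the cytosolic isocitrate dehydrogenase that yields NADPH, fell (9.58, 10.56 and 10.79 against 13.08, 12.91 and 12.36). Idh1 missed the threshold with the covariate (limma adjusted p = 0.052).

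Folding factors of the endoplasmic reticulum were divided. Creld2, an isomerase induced by the unfolded protein response, read 13.13, 12.47 and 12.08 in lung and 10.25, 9.77 and 10.52 under the skin, and the chaperone Hyou1 10.23, 9.72 and 9.50 against 7.74, 8.15 and 7.05. The stress sensor Atf6 and the calnexin gene Canx were lower instead (12.92, 12.20 and 11.89 against 13.50, 13.99 and 13.41 for Atf6). In all 8 of 20 genes were called higher and 4 lower, and with the covariate none of the 8 was called, but Atf6 and Canx were. Cytosolic chaperones had 5 of 18 higher and 0 lower, under the share among genes above background (2645 of 6311). The chaperonin subunit Cct3 stood at 12.20, 12.19 and 12.06 against 10.38, 10.05 and 10.32 (limma adjusted p = 0.000667). Hsph1, of the HSP110 family, read 15.64, 15.07 and 14.48 against 13.37, 13.23 and 13.38. With the covariate Cct3 was the 1 chaperone called, and Hsph1, Hspe1 and Hspa9 were not (limma adjusted p = 0.12, 0.067 and 0.25).

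Of 25 constitutive proteasome genes 11 rose and 0 fell, such as Psmb6, a catalytic-ring subunit (14.01, 13.82 and 14.42 against 12.52, 12.16 and 11.76, limma adjusted p = 0.000564), and Psmb3 (15.62, 15.77 and 15.79 against 14.36, 14.34 and 14.38). All 25 were above background at a site, and their number of calls was near the share among such genes (2645 of 6311). Of 19 autophagy genes 4 fell and 0 rose, beside 15% of all genes called and the larger share among genes above background. The 4 include Gabarap, which coats autophagosomes (11.89, 11.56 and 12.49 against 13.32, 14.22 and 13.91), and Atg7, the enzyme that activates such coats (10.04, 10.50 and 10.61 against 11.87, 12.48 and 12.16). Lysosomal genes ran both ways, 3 higher and 4 lower of 21, which is also under the share among genes above background. The protease legumain, Lgmn, was lower (12.92, 13.22 and 12.95 against 14.72, 14.85 and 14.91) and the channel Mcoln1 higher (11.21, 10.97 and 11.74 against 10.46, 9.85 and 10.07). With the covariate 4 proteasome genes were called higher and Atg7 was the 1 autophagy gene called lower.

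**Figure D4:**
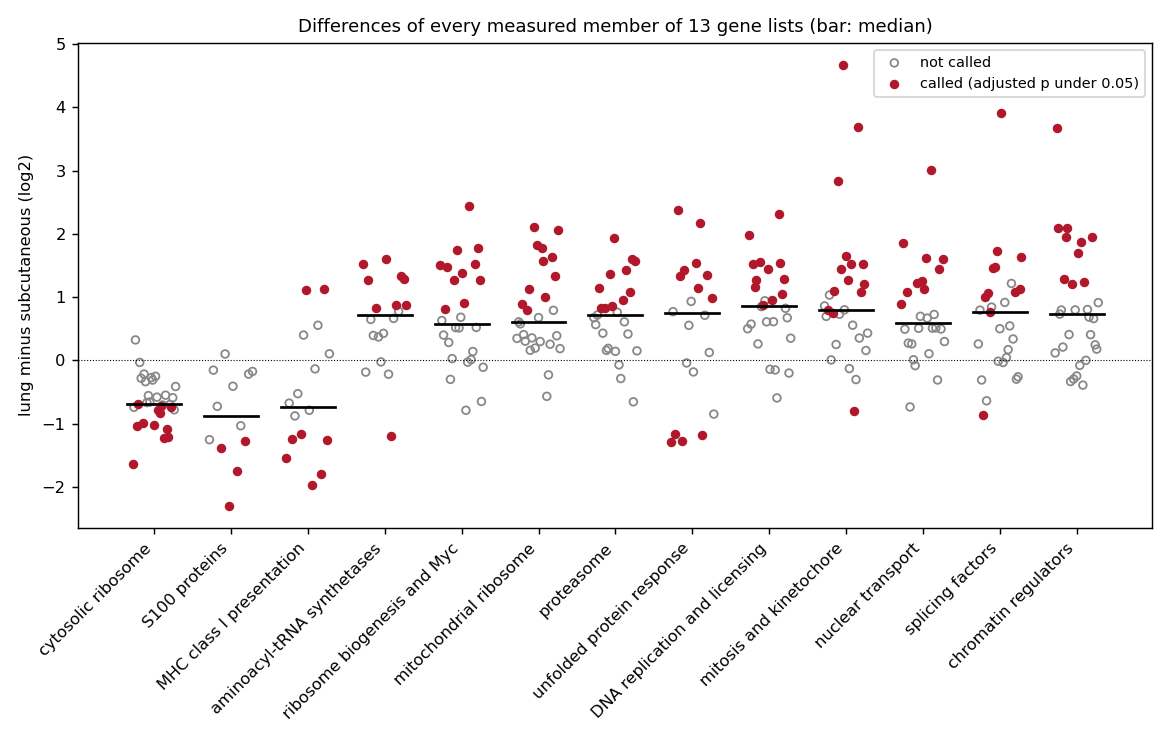
Lung minus subcutaneous difference in log2 signal (vertical axis) for every measured member of 13 gene lists (columns), with called genes filled, other genes open and the median as a bar. Called members lie on both sides of 0 in the MHC class I, unfolded protein response, synthetase, mitosis and splicing lists, and on 1 side in the other 8.

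In the lists of nuclear transport, splicing and chromatin genes the calls were mainly upward. For nuclear transport and splicing their number was near the share among genes above background (2645 of 6311). Nup85, a scaffold nucleoporin, read 13.90, 13.74 and 13.70 in lung and 11.10, 10.86 and 10.34 under the skin, an 8.06-fold difference (limma adjusted p = 3.73e-05). Ipo4, an importin that carries histones and ribosomal proteins, read 12.81, 12.33 and 12.63 against 10.78, 10.91 and 10.50. Both are even over the lung arrays, and 10 of 26 nuclear transport genes rose and 0 fell. Splicing factors had 10 of 27 higher and 1 lower, with the core Sm protein Snrpb at 11.41, 11.09 and 11.30 against 9.95, 8.88 and 9.78 (limma adjusted p = 0.00173). Of 29 chromatin regulators 10 were higher and 0 lower, but with a median of 0.91 on lung replicates 1 and 2 and 0.21 on lung replicate 3.

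Within the chromatin list the rises were unequal on the lung arrays. Bptf, a remodelling factor with a very long mRNA, read 11.03, 10.98 and 7.09 in lung and 5.21, 6.45 and 6.41 under the skin. Dnmt1, the maintenance DNA methyltransferase, read 11.33, 11.59 and 9.71 against 8.93, 8.69 and 8.72, and Carm1, an arginine methyltransferase, 15.40, 15.48 and 14.39 against 13.61, 12.80 and 12.58. Smarca4, the ATPase of the BAF remodeller, was 2.79 higher on lung replicates 1 and 2 and 0.29 on lung replicate 3, and its call ended without either of these 2 lung arrays or without subcutaneous replicate 1 or 3. With the covariate 1 chromatin gene was called higher, and none of Bptf, Dnmt1, Carm1 and Smarca4 was. Of the nuclear transport genes 2 were called with it, Nup85 among them, and of the splicing factors 3, Snrpb among them.

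In purine and pyrimidine synthesis 6 of 18 genes were called higher and 3 lower. Xdh, which degrades purines to urate, fell (7.55, 8.57 and 9.36 against 11.69, 11.31 and 11.31), as did Adss, which makes the precursor of AMP (11.41, 11.93 and 12.50 against 13.67, 13.51 and 13.90). Umps, which completes the pyrimidine ring pathway, rose (11.81, 11.17 and 12.05 against 9.71, 9.39 and 9.03, limma adjusted p = 0.000386), and so did Impdh1, the entry to GMP (8.94, 8.64 and 9.01 against 6.87, 7.06 and 6.77). Of the antioxidant genes Txnrd1, thioredoxin reductase, rose (11.53, 11.09 and 11.12 against 9.61, 8.93 and 8.61) and the glutathione transferase Gstp1 fell (13.64, 13.98 and 13.88 against 15.26, 15.56 and 15.37). Xdh and Adss were not called with the covariate (limma adjusted p = 0.051 and 0.15), and the other 4 were.

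Lung replicate 3 itself is described by the genes that part it most from the other lung arrays. Upward, Scgb3a1, a secretoglobin, read 10.80 on lung replicate 3 and 4.05 and 5.15 on lung replicates 1 and 2, Bpifb1, an airway surface protein, 8.76 against 3.38 and 3.95, and Tff2, a trefoil mucosal peptide, 9.36 against 4.77 and 5.03. None of these was called between the sites (limma adjusted p = 0.307 to 0.409). Retnla, a secreted protein of airway and macrophage cells, read 8.34 against 3.86 and 6.42. The potassium channel gene Kcnh1 and the class II chaperone subunit H2-DMb1 lay below all subcutaneous arrays on lung replicates 1 and 2 (6.04 and 7.54, 5.60 and 5.003). On lung replicate 3 Kcnh1 was within their range (10.01) and H2-DMb1 above it (9.15, against 7.44 to 8.29).

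**Figure D5:**
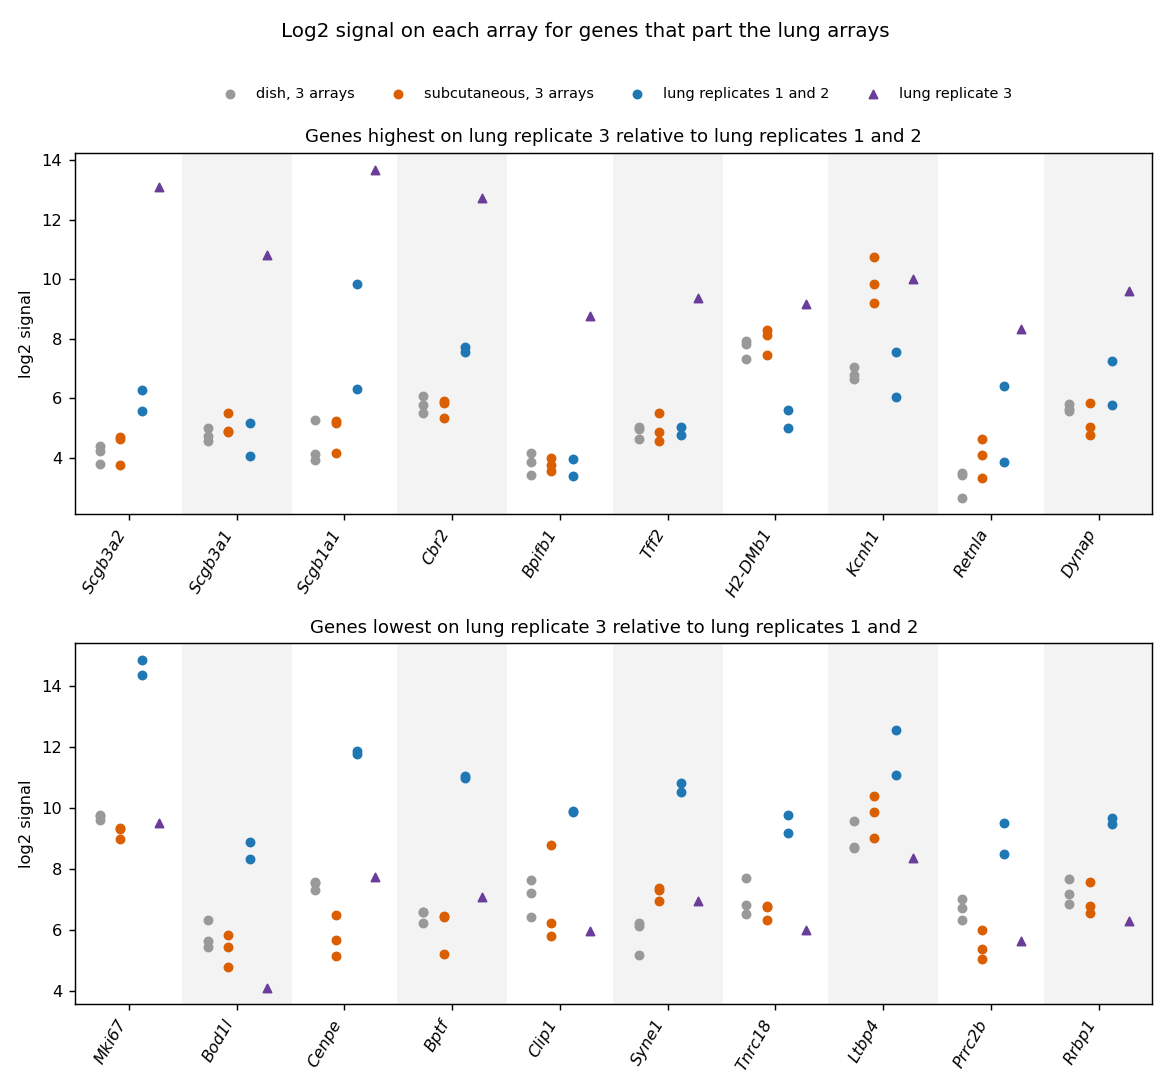
Log2 signal (vertical axis) on each of the 9 arrays for the 10 genes that lay highest (upper panel) and lowest (lower panel) on lung replicate 3 relative to lung replicates 1 and 2, with grey dish, orange subcutaneous, blue lung replicates 1 and 2 and purple lung replicate 3. In the lower panel lung replicate 3 lies near the subcutaneous and dish arrays and lung replicates 1 and 2 lie above them.

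Downward, besides Mki67, Cenpe and Bptf, the genes include Syne1, which links the nucleus to actin (10.53, 10.82 and 6.93 in lung, 6.94 to 7.39 under the skin), and Clip1, a microtubule plus-end protein (9.88, 9.86 and 5.97, against 5.78 to 8.78). Bod1l, which protects replication forks, read 8.34, 8.88 and 4.10, and Rrbp1, a ribosome receptor of the endoplasmic reticulum, 9.47, 9.65 and 6.31. On lung replicate 3 all of these but Cenpe and Bptf lay within the range of the subcutaneous arrays or under it, or, for Mki67, 0.28 above their mean. Ltbp4, a matrix protein that holds latent TGF-beta, read 11.07, 12.56 and 8.37 against 9.01 to 10.40, so that lung replicate 3 was below and lung replicates 1 and 2 above the subcutaneous arrays.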

How the data were processed

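The table holds 1 log2 value per feature and array, as deposited by the authors; that the scale is log2 was taken from the values (1.56 to 19.7), and its normalization and software, like the genome build, were not given in the sources used here. Per the labels' protocols, RNA was isolated with spin columns and biotin-labelled sense cDNA was hybridised. Of 28846 rows 22206 were gene features, 19572 of them with a symbol in the platform annotation and 2634 without, which were left out. For the 55 genes with several features, the brightest on average stood for the gene.

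All 9 arrays were fitted with limma 3.58.1 in R 4.3.3 (3 group means, moderated variances, two-sided tests of lung minus subcutaneous, Benjamini-Hochberg adjustment over 19505 genes), after a check on simulated data. The number of arrays limits the precision. A value under the 90th percentile of the array's 5222 negative controls counted as under background. Where a group lay under it on every array, "at least" gives the brighter mean minus the mean of that percentile over the dimmer arrays.

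The genes named were the 15 largest consistent calls each way (brighter group above background, call kept without any 1 lung array), the 10 highest and 10 lowest on lung replicate 3 relative to the other lung arrays (some shown only in the plot), and from up to 4 called members of largest difference per list. The promoters shown were chosen because they hold a match. Others, such as single members of the hypoxia, lipid and folding lists, their uncalled members and the calls that 1 array ends, were chosen after their values were seen. Members and lists were chosen with earlier results of these data known.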

Additional observations from a re-analysis of the deposited data

How the results depend on the processing

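The 2927 calls (1797 higher, 1130 lower) became 827 (470 and 357) with the very long mRNA level as a covariate, and 2852 with the replicate block, although the numbers were not found to pair the samples (correlations of same-numbered deviations from the group means of 0.0115, 0.0268 and 0.0199). Leaving out 1 array gave 1476 to 2928 calls in all, 950 to 1927 higher and 526 to 1063 lower. Upper quartile scaling gave 1124 higher and 2936 lower. The 1219 consistent calls (803 higher, 416 lower) became 508 (311 and 197) with the covariate, and 1137 to 2073 (689 to 1445 and 411 to 628) without 1 array. With the covariate Mki67 turned to -0.0728 and Smarca4 to -0.128. Of the uncalled genes, Etv5 changed sign with array weights (-0.0428), the covariate (-0.307) and upper quartile scaling (-0.198), and ranged from -0.35 to 0.405 without 1 array, and Lpcat1 from -0.447 to 0.0144; the cause was not tested. Other settings (quantile normalization, a filter on dim genes, trended and robust variances, array weights, 6 arrays alone, RNA integrity, the mean of features) gave 2301 to 3824 calls. The covariate and upper quartile scaling were chosen after seeing the data, and the fit with the covariate leans toward lung replicate 3. The consistent calls were not recomputed under quantile normalization, upper quartile scaling or the mean of features, and a length list from protein sizes was not run.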
